A study of Homo sapiens with 24 samples.

Results

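The AP-1 and immediate early genes FOS, FOSB, FOSL1, FOSL2, JUN, JUNB, JUND, EGR1, IER3 and MYC were followed in 4 triple-negative breast cancer lines exposed to cisplatin, a platinum drug that crosslinks DNA. They were taken as every probe of the deposited intensity table whose annotated symbol is 1 of these 10 names, which gave 11 probes for 10 genes among 20046 genes with a probe. All 10 genes passed the filter on dim probes that left 14807 genes for testing. MYC had 2 probes, and each of the other genes had 1.

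The lines were BT549, HCC38, MDA-MB-157 and MDA-MB-231, long-established cultures of breast cancers without oestrogen receptor, progesterone receptor or raised HER2. Every line was given cisplatin at 2 µM and sampled at 0, 24 or 72 h, with 2 independent replicates per line and time per the series' design text. That made 12 groups and 24 single-colour bead arrays on 2 slides, each slide holding 1 array of every group. The 0 h cells served as the reference for both later times, and cultures left untreated for 24 or 72 h were not analysed here, so time in culture and cisplatin cannot be told apart. Each line is a single source, so an average over the 4 lines describes these lines.

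Immediate early genes are transcribed within minutes of a growth factor, serum or stress signal, from promoters on which the required factors already sit, and most of their mRNAs are short-lived. FOS and JUN family proteins pair through leucine zippers to form AP-1, which binds the site TGACTCA. FOS proteins bind only as partners of a JUN protein, whereas JUN proteins can also pair with each other. FOS and FOSB carry activation domains, FOSL1 (FRA-1) and FOSL2 (FRA-2) lack the strong ones, and FOSL1 is known for its high level in mesenchymal-like breast cancer lines. EGR1 is a zinc finger factor, IER3 a short-lived regulator of stress and survival signalling, and MYC a growth regulator that binds DNA with MAX.

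The promoters of FOS, FOSB and EGR1 are shown because these genes differed most between the replicate cultures described next, and that of JUN because it hardly differed. This choice was made after the values were seen. The sequences are RefSeq's, build GRCh38.p14, read 5′ to 3′ on the gene's strand over the 250 bases that end at position -1, the base before the annotated start. Of the 10 genes, 7 had an entry. Capitals mark the motifs searched on both strands: the AP-1 site TGACTCA, the AP-1-like site TGACATCA, the cyclic AMP element TGACGTCA with its shorter core TGACG, the CArG box bound by serum response factor, the GC box GGGCGG and TATAAA.
FOS, chr14:75278578-75278827, strand +: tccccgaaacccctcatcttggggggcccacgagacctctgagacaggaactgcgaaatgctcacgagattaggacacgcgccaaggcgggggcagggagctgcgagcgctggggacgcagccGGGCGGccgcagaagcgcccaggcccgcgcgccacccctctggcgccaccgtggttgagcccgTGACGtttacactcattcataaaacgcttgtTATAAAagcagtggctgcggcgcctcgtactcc
FOSB, chr19:45467746-45467995, strand +: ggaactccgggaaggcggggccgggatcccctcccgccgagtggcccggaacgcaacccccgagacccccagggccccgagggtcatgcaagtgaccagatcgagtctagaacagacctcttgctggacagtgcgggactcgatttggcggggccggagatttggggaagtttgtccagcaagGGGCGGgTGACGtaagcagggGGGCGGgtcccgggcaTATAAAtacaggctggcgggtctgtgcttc
EGR1, chr5:138465229-138465478, strand +: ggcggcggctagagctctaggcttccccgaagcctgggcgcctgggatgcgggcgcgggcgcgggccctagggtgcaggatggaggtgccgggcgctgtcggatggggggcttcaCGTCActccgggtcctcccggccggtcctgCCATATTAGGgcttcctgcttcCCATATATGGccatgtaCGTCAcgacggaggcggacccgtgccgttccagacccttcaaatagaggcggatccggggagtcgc
JUN, chr1:58784048-58784297, strand -: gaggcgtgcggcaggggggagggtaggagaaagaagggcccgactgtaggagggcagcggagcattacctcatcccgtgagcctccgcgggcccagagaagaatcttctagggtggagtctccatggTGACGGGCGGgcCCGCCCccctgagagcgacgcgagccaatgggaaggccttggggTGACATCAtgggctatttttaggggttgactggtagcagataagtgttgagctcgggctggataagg
FOS held TGACG from position -64 and FOSB from position -60, and both held TATAAA, from -33 and -30. EGR1 held TGACG on the opposite strand from -135 and -66, and a CArG box from -105 and from -83. JUN held TGACATCA from -67, the AP-1-like site, and a TGACG from -123 whose last base is also the first base of a GC box. GC boxes also stood in FOS from -127 and in FOSB from -67 and -46. Of 35116 promoters of this length, 21.2% held TGACG, 2.37% TGACATCA, 1.16% a CArG box, 42.6% GGGCGG and 10.7% TATAAA. The site TGACTCA, in 4.2% of promoters, and the element TGACGTCA, in 1.65%, were not matched in the 4 windows shown. A match describes letters and not a bound site. Of the 4 windows shown, only that of EGR1 matched a CArG box. Bases farther upstream than 250 were not searched, so these genes may hold further sites there.

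The detected share was similar on all arrays, with 18303 to 21976 of the 47322 probes per array (38.7 to 46.4%) at a detection p under 0.05. Brightness before normalisation was less even: the 75th percentile of intensity ran from 134.2 to 283.1, both ends being the 2 arrays of MDA-MB-231 at 24 h. Normalised log2 values of the 2 arrays of a group correlated at 0.977 to 0.991 across genes. All probes of the 10 genes were detected on all 24 arrays, except FOSB, which was detected on 21. It was detected on 1 of 2 arrays in MDA-MB-157 at 0 h and 72 h and in MDA-MB-231 at 24 h. Marker genes were as labelled for hormone receptors, with ESR1 detected on 0 arrays and PGR on 2. ERBB2 was detected on 24. Of the mesenchymal markers VIM was detected on 24 arrays, CDH2 on 23, ZEB1 on 10 and FN1 on 9. The epithelial markers CDH1, EPCAM, KRT8, KRT18 and KRT19 were detected on 21, 22, 23, 20 and 23 arrays, and HCC38 had the highest mean of each of the 5 (11.19 log2 for CDH1, 13.06 for EPCAM). Of the blood and endothelial markers, PTPRC, CD3E and CDH5 were detected on 0 arrays, PECAM1 on 6 and CD14 on 24.

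Replicate cultures of BT549 stood apart in FOS, and this bears on every FOS value below. Values are normalised log2 intensities, so 1 unit is a doubling, and they are given for replicate 1 and then replicate 2. FOS in BT549 read 10.60 and 7.29 at 0 h, 10.29 and 6.39 at 24 h, and 9.91 and 6.45 at 72 h. Replicate 1 was thus higher by 3.31, 3.90 and 3.45 log2, which is 9.93-fold, 14.9-fold and 11-fold. At 0 h the intensities before normalisation were 3461 and 338.5. Among 14807 genes this was the largest gap between the 2 arrays at 0 h and 24 h and ranked 2 at 72 h. In BT549 no other gene kept as large a gap at all 3 times.

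FOSB and EGR1 showed the same direction in BT549. FOSB was higher in replicate 1 by 2.78, 3.03 and 1.66 log2 at 0, 24 and 72 h, and EGR1 by 1.45, 2.05 and 2.29. JUNB was higher by 1.26, 0.50 and 1.94. Replicate 1 exceeded replicate 2 by more than 1 log2 at all 3 times in 3 of the 10 genes (FOS, FOSB and EGR1), against 0.54% of all genes. JUN differed by 0.00, -0.12 and 0.23 in the same cultures, and IER3 by 1.04, 0.10 and -0.03.

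The gap went with the replicate number and not with the slide: at 0 h replicate 1 of BT549 lay on slide 2, and at 24 h and 72 h on slide 1. Other genes with gaps at all 3 times included MUC1, a surface mucin, with 2.41, 2.96 and 2.64, and the Notch target HES1 with 2.26, 2.22 and 2.09. ZFP36, which binds and destabilises short-lived mRNAs and is an immediate early gene itself, differed by 1.81, 1.87 and 1.88. Outside BT549, FOSB in MDA-MB-231 was higher in replicate 1 by 0.94, 2.00 and 2.24, the last being the largest gap of any gene in that group. Replicate 2 was near background at 24 h (4.98, detection p 0.069) and 72 h (5.04, detection p 0.044), so the sizes of these gaps are uncertain. FOS in MDA-MB-157 was higher in replicate 1 by 1.59, 1.39 and 0.79. In HCC38 the FOS arrays differed by -0.42, 0.07 and -0.47.

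**Figure D1:**
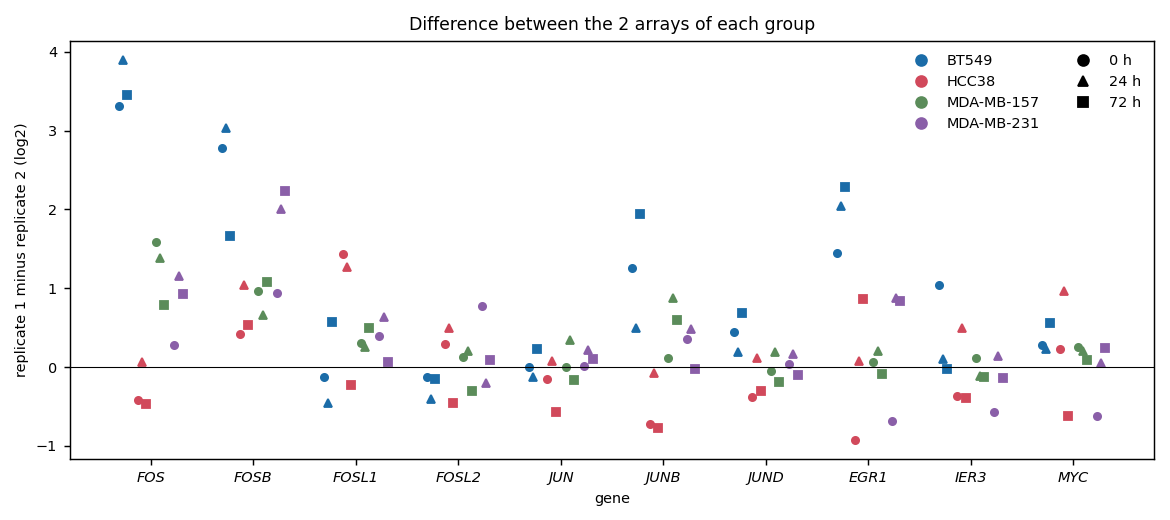
Difference between the 2 arrays of each group, replicate 1 minus replicate 2 in log2 units, for the 10 genes. Colours are lines and shapes are hours of cisplatin. The 3 BT549 points of FOS lie between 3.31 and 3.90, whereas those of JUN lie between -0.12 and 0.23.

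Before cisplatin, the lines differed in most of these genes. In limma's moderated F test across the 4 lines at 0 h, with Benjamini-Hochberg adjustment over all 14807 genes, 9 of the 10 genes were called at an adjusted p under 0.05. Of all genes tested, 66.8% were called, so most genes differed between the lines and the share among the 10 genes is to be read against that. HCC38 was high in FOS and FOSB, BT549 in JUN, and MDA-MB-231 in FOSL1, MYC and IER3, and MDA-MB-157 was low in FOSB, EGR1 and MYC. Against the other 3 lines, 4 genes were called in BT549 and 6 in each of the other lines. The shares of all genes called in these contrasts were 41.1% (BT549), 43.5% (HCC38), 43.2% (MDA-MB-157) and 37.1% (MDA-MB-231).

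Among the FOS family members, FOSB spread most. At 0 h it read 10.95 and 10.53 in HCC38, 8.52 and 5.74 in BT549, 7.33 and 6.39 in MDA-MB-231, and 5.61 and 4.65 in MDA-MB-157. HCC38 lay above all other lines and MDA-MB-157 below all others without overlap, while BT549 and MDA-MB-231 overlapped. HCC38 exceeded the mean of the other lines by 4.37 log2 (SE 0.78, 20.7-fold, limma adjusted p 0.00012), and MDA-MB-157 lay below it (-3.11, SE 0.78, adjusted p 0.0029). The lower MDA-MB-157 array (4.65) was not above background, with a detection p of 0.186, so the size of the latter difference is uncertain.

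FOS at 0 h read 11.07 and 11.49 in HCC38, 10.60 and 7.29 in BT549, 9.04 and 7.45 in MDA-MB-157, and 8.28 and 8.0 in MDA-MB-231. The HCC38 arrays lay above all others, and each of the remaining neighbours in this order overlapped. HCC38 exceeded the other lines by 2.83 log2 (SE 0.91, 7.13-fold, limma adjusted p 0.015), but FOS was the gene of the 10 that the F test did not call (adjusted p 0.055, unadjusted p 0.037). The call changed when BT549 cultures were left out: without the 3 BT549 arrays numbered 1 the adjusted p was 4.1e-05 and without the 3 numbered 2 it was 7.3e-05. In both cases the lone BT549 array per time was taken to vary like the other groups.

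FOSL1 ran in another order than FOS. At 0 h it read 10.34 and 9.94 in MDA-MB-231, 9.35 and 9.03 in MDA-MB-157, 8.27 and 8.39 in BT549, and 8.50 and 7.06 in HCC38. MDA-MB-231 lay above MDA-MB-157 and that line above BT549 without overlap, while BT549 and HCC38 overlapped. MDA-MB-231 exceeded the other lines by 1.71 log2 (SE 0.32, 3.27-fold, limma adjusted p 0.00032), and HCC38 lay below them (-1.44, SE 0.32, adjusted p 0.0012). The F test for FOSL1 was passed at an adjusted p of 0.00017, but with median scaling of the arrays in place of quantile normalisation it was 0.12.

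FOSL2 covered the narrowest range of the FOS family. Its 0 h values were 7.39 and 6.61 in MDA-MB-231 and lay between 6.11 and 6.57 in the other lines. MDA-MB-231 exceeded them by 0.65 log2 (SE 0.20, limma adjusted p 0.014). The F test (adjusted p 0.037) was lost when any of several arrays was left out, with an adjusted p of 0.48 without replicate 1 of MDA-MB-231 at 0 h, and with median scaling (0.61).

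Among the JUN family members, JUN separated the lines most sharply. At 0 h it read 10.93 on both BT549 arrays, 10.26 and 10.25 in MDA-MB-231, 9.23 and 9.24 in MDA-MB-157, and 8.83 and 8.99 in HCC38. No neighbouring lines overlapped, and the arrays of a line differed by at most 0.15. BT549 exceeded the other lines by 1.46 log2 (SE 0.15, 2.76-fold, limma adjusted p 2.2e-07), and HCC38 lay below them (-1.23, SE 0.15, adjusted p 1.7e-06). By group mean, HCC38 was thus highest in FOS and FOSB and lowest in JUN and FOSL1 at 0 h.

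JUNB, a JUN protein with weaker activation capacity than JUN, read 7.50 and 8.22 in HCC38, 8.26 and 7.01 in BT549, 6.20 and 6.09 in MDA-MB-157, and 5.73 and 5.38 in MDA-MB-231. HCC38 and BT549 overlapped, and both lay above MDA-MB-157, which lay above MDA-MB-231. MDA-MB-231 was below the other lines (-1.66, SE 0.40, limma adjusted p 0.0025). Its arrays were detected but dim (intensities 123.1 and 127.1, detection p 0.0026 on each), so the size of this difference is uncertain. HCC38 (1.42, SE 0.40) and BT549 (1.11, SE 0.40) were above the other lines with limma adjusted p of 0.0064 and 0.030.

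JUND, the JUN member that is usually expressed constitutively, varied little. Its 0 h values ran from 12.12 to 12.74 in BT549, HCC38 and MDA-MB-231, which overlapped, and were 11.81 and 11.86 in MDA-MB-157. MDA-MB-157 was below the other lines (-0.62, SE 0.18, limma adjusted p 0.0074), and the F test (adjusted p 0.024) was not passed without replicate 1 (0.14) or replicate 2 (0.10) of MDA-MB-157 at 0 h.

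EGR1 at 0 h read 10.46 and 11.38 in HCC38, 11.63 and 10.19 in BT549, 8.65 and 9.34 in MDA-MB-231, and 8.32 and 8.26 in MDA-MB-157. HCC38 and BT549 overlapped and lay above the other lines. MDA-MB-157 was lowest without overlap (-1.98, SE 0.53, 3.96-fold, limma adjusted p 0.0046).

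IER3 at 0 h read 12.60 and 13.17 in MDA-MB-231, 12.36 and 12.72 in HCC38, 12.31 and 11.27 in BT549, and 11.77 and 11.64 in MDA-MB-157. MDA-MB-231 and HCC38 overlapped, as did BT549 and MDA-MB-157. MDA-MB-231 exceeded the other lines by 0.87 log2 (SE 0.22, limma adjusted p 0.0035).

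MYC, by the brighter of its probes (ILMN_1680618), read 11.12 and 11.74 in MDA-MB-231, 11.23 and 10.95 in BT549, 10.55 and 10.33 in HCC38, and 10.11 and 9.87 in MDA-MB-157. The upper 2 lines overlapped, and each lower line lay apart from the next. MDA-MB-231 exceeded the other lines by 0.92 log2 (SE 0.23, limma adjusted p 0.0036) and MDA-MB-157 lay below them (-1.0, SE 0.23, adjusted p 0.0016). The other probe (ILMN_2110908) gave the same order of the 4 lines at 0 h, and both probes correlated at 0.90 over the 24 arrays.

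**Figure D2:**
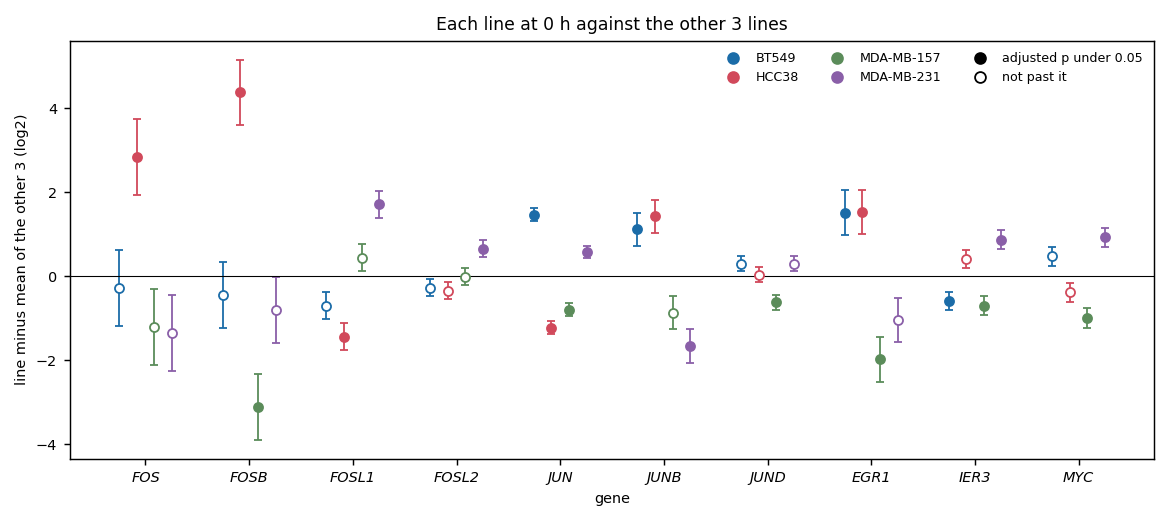
Each line at 0 h minus the mean of the other 3 lines, in log2 units with standard errors, for the 10 genes. Filled points have a limma adjusted p under 0.05 over all genes, and the HCC38 point of FOSB is the highest at 4.37.

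Over all 12 groups the span of the group means differed between the genes, and the spread was not divided between line, time and replicate. From the highest to the lowest group mean, FOSB spanned 5.61 log2 (its lowest group being MDA-MB-157 at 0 h, detected on 1 of 2 arrays), FOS 4.11, EGR1 2.86, FOSL1 2.53, JUN 2.49, JUNB 2.31, MYC 2.03, IER3 1.55, JUND 1.01 and FOSL2 0.82. Of the 11 pairs of neighbouring groups in that order, between 7 (JUN and IER3) and 10 (FOSL2, JUNB and EGR1) overlapped in their arrays. The highest group of FOS, FOSB, JUNB and EGR1 was HCC38 at 0 h.

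**Figure D3:**
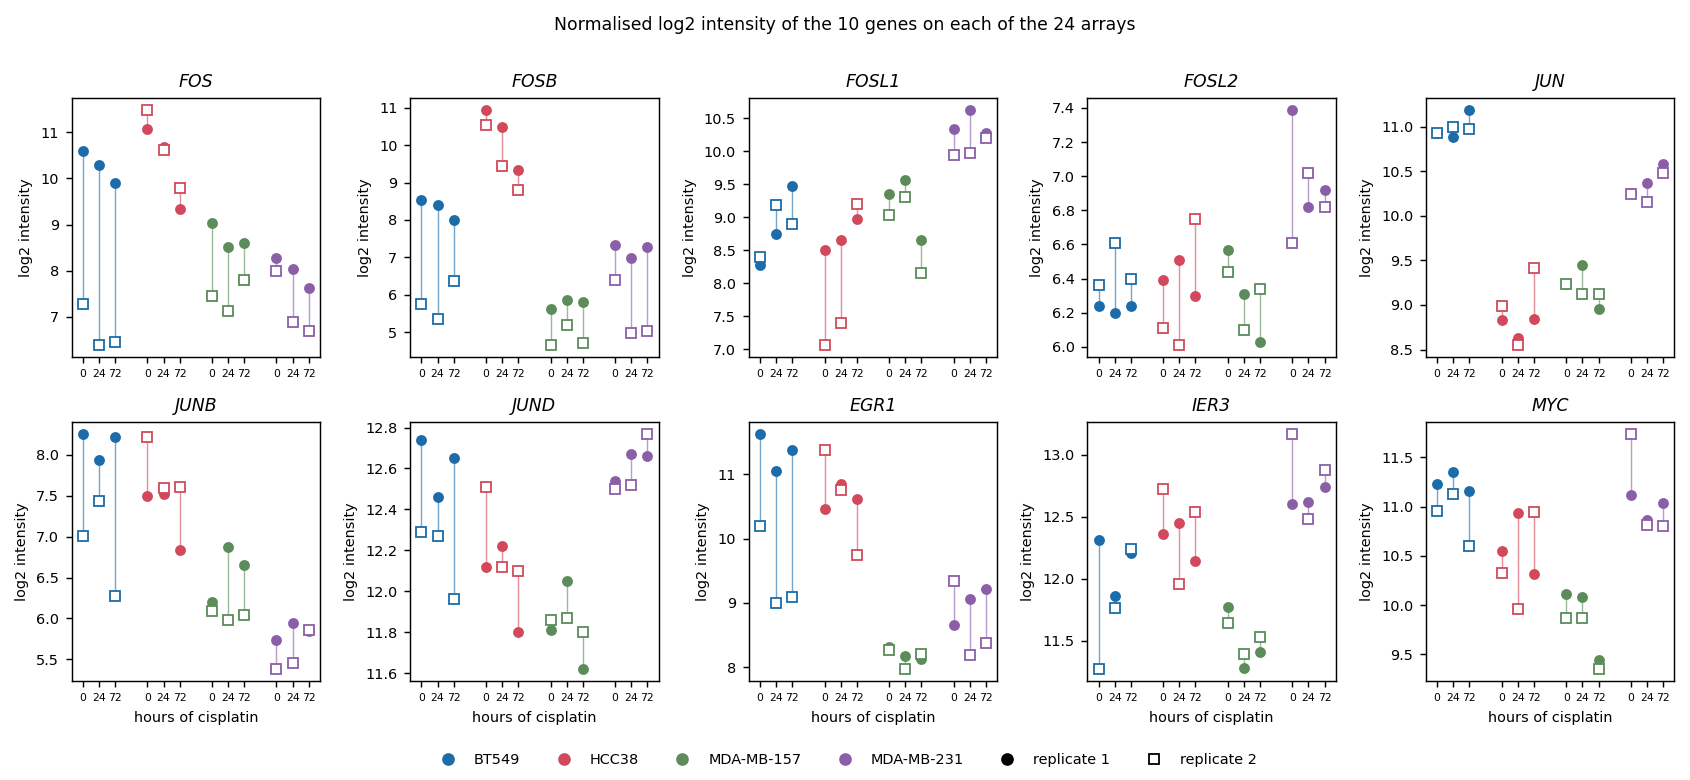
Normalised log2 intensity of the 10 genes on each of the 24 arrays, by line (colour) and hours of cisplatin, with replicate 1 filled, replicate 2 open and a line joining the 2 arrays of a group. In FOS the HCC38 arrays go from 11.07 and 11.49 at 0 h to 9.33 and 9.80 at 72 h, and the BT549 replicates stay apart.

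Under cisplatin, 0 of the 10 genes passed the test in the fit of 1 mean per group. That fit counts a difference between numbered replicates as spread, also where it recurs at each time. At an adjusted p under 0.05, limma called 0 of them on the average of the 4 lines both at 24 h, where 0.0135% of all genes were called, and at 72 h, where 1.21% were. At an unadjusted p under 0.05 the counts were also 0, against 8.75% and 15.5% of all genes. In these and the following counts MYC stands for its brighter probe, and the other probe is given below. The lines taken singly gave 0 calls at 24 h, where the share of all genes called was 0.027% in BT549 and 0% in HCC38, MDA-MB-157 and MDA-MB-231. At 72 h they gave 0 as well, against 1.01% in BT549, 0.081% in HCC38, 0.081% in MDA-MB-157 and 0.00675% in MDA-MB-231.

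At an unadjusted p under 0.05, 0 of the 10 genes were counted in any line at 24 h, against 5.54% of all genes in BT549, 4.42% in HCC38, 4.25% in MDA-MB-157 and 8.57% in MDA-MB-231. At 72 h there was 1 each in BT549 (12.5% of all genes), HCC38 (10.3%) and MDA-MB-157 (6.88%) and 0 in MDA-MB-231 (9.35%). On the average of the lines 8 of the 10 values lay below 0 at 24 h and 8 at 72 h, against 51.6% and 50.3% of all genes. With median scaling these were 9 and 9, against 72.7% and 68.9%. The medians of the 10 genes were -0.09 and -0.13 log2, and those of all genes -0.005 and -0.001. Both times share the 0 h arrays.

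FOS had the lowest average value, -0.59 log2 at 24 h (SE 0.56, 95% interval -1.75 to 0.57) and -0.87 at 72 h (SE 0.56, interval -2.04 to 0.29, limma adjusted p 0.49). In HCC38 its arrays went from 11.07 and 11.49 at 0 h to 10.68 and 10.61 at 24 h and 9.33 and 9.80 at 72 h. The arrays of the 3 times did not overlap, yet the difference at 72 h (-1.71, SE 1.11, 3.28-fold) had a limma adjusted p of 0.65. The shared standard error of FOS includes the gap between the BT549 cultures. Without all BT549 arrays the HCC38 difference kept its size with an adjusted p of 0.20, and the average over the other 3 lines at 72 h was -0.91 with 0.23. With a block for the replicate number in each line, the 72 h average had SE 0.12 and a limma adjusted p of 0.003. The HCC38 difference at 72 h then had SE 0.24 and an adjusted p of 0.009. Across genes, the differences between replicates correlated between times at over 0.1 in 7 of 12 pairs of times. In BT549 these correlations were 0.378 to 0.501. Since not all pairs of times were over 0.1, the replicate numbers were not taken as pairs, and the block stands as an alternative. In MDA-MB-231 FOS read 8.28 and 8.0 at 0 h, 8.04 and 6.89 at 24 h and 7.63 and 6.70 at 72 h (-0.98 at 72 h, SE 1.11). In MDA-MB-157 the 72 h difference was -0.04 and the arrays of both times overlapped.

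Within slides the FOS average was 0.07 log2 at 24 h and -0.35 at 72 h on slide 1, and -1.24 and -1.39 on slide 2. On each slide the 0 h array carries another replicate number than the 24 h and 72 h arrays in BT549 and HCC38, than the 72 h array in MDA-MB-157 and than the 24 h array in MDA-MB-231, so these values also hold differences between replicates. FOS, FOSB and EGR1, with averages of -0.55 (SE 0.48) and -0.43 (SE 0.32) for the latter pair at 72 h, had the largest errors of the 10 genes. The within-slide averages of FOSB at 72 h were 0.04 and -1.13, and those of EGR1 0.22 and -1.09.

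FOSB in HCC38 ran as FOS did, from 10.95 and 10.53 at 0 h to 10.48 and 9.44 at 24 h and 9.34 and 8.81 at 72 h. The 72 h arrays lay below both earlier times. The difference at 72 h was -1.66 (SE 0.95, 3.16-fold, limma adjusted p 0.58). With the replicate block, an alternative, it had SE 0.31 and a limma adjusted p of 0.028. EGR1 in HCC38 read 10.61 and 9.75 at 72 h, which overlapped with 0 h.

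FOSL1 at 72 h lay on different sides of 0 h in different lines, though no difference passed the test. In BT549 it read 9.47 and 8.90 at 72 h against 8.27 and 8.39 at 0 h, and in HCC38 8.97 and 9.20 against 8.50 and 7.06. In MDA-MB-157 it read 8.66 and 8.16 against 9.35 and 9.03. The 72 h arrays lay above those of 0 h in BT549 and HCC38 and below them in MDA-MB-157, without overlap. The differences were 0.86 (limma adjusted p 0.38, unadjusted 0.043), 1.31 (adjusted 0.22, unadjusted 0.0038) and -0.78 (adjusted 0.77, unadjusted 0.064), each with SE 0.40. In MDA-MB-231, where FOSL1 was highest, the difference was 0.09. The F test of whether the lines' 72 h differences were unequal gave an unadjusted p of 0.0079 and an adjusted p of 0.35.

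The HCC38 value of FOSL1 rested on the 0 h arrays, which were 1.44 log2 apart. Without replicate 1 at 0 h it was 2.03 with a limma adjusted p of 0.019, and without replicate 2 it was 0.59 with an adjusted p of 1, the lone 0 h array being taken to vary like other groups. FOSL2 stayed within -0.32 to 0.28 of 0 h in all lines at 72 h.

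None of the JUN family members was called on the 72 h average. JUN on the 72 h average was 0.11 (SE 0.09, 95% interval -0.08 to 0.30). JUND was -0.12 (SE 0.11) and JUNB -0.13 (SE 0.24, interval -0.64 to 0.38). By line JUNB at 72 h was -0.38 in BT549, -0.64 in HCC38, 0.20 in MDA-MB-157 and 0.29 in MDA-MB-231 (SE 0.49 each). In MDA-MB-231 the 72 h arrays of JUN (10.58 and 10.48) and JUND (12.66 and 12.77) lay above those of 0 h, and in MDA-MB-157 those of JUN (8.95 and 9.12) and JUND (11.62 and 11.80) lay below. None of these 4 differences passed the adjusted test.

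MYC on the 72 h average was -0.28 (SE 0.14, limma adjusted p 0.36). In MDA-MB-157 it read 9.44 and 9.35 at 72 h against 10.11 and 9.87 at 0 h, and in MDA-MB-231 11.04 and 10.80 against 11.12 and 11.74. Both pairs did not overlap, with differences of -0.59 and -0.51 (SE 0.28 each). The other MYC probe gave -0.43 at 24 h (SE 0.15, limma unadjusted p 0.011) and -0.35 at 72 h (SE 0.15, unadjusted p 0.035) on the average. The brighter probe gave -0.11 and -0.28. In MDA-MB-231 at 24 h the other probe gave -0.77 (SE 0.31, limma unadjusted p 0.021) and the brighter probe -0.59 (SE 0.28, unadjusted p 0.051). IER3 was -0.25 at 24 h (SE 0.13) and -0.02 at 72 h.

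How many genes had 72 h arrays wholly below or above those of 0 h depended on the scaling in every line. In MDA-MB-157, 7 of the 10 genes lay below (FOSL1, FOSL2, JUN, JUND, EGR1, IER3 and MYC, against 19% of all genes) and 0 above (22.2%). With median scaling 0 lay below (5.45% of all genes), and in the authors' own log2 values 3 did (12%). In HCC38, 3 genes lay below (22.2%) and 1 above (19.2%), while 5 lay below with median scaling (26.3%) and 6 in the authors' values (16.5%).

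In BT549, 0 genes lay below (22.6%) and 2 above (19.5%), while 4 lay below with median scaling (58.5%) and 3 in the authors' values (32.3%). In MDA-MB-231, 2 lay below (17.5%) and 3 above (18.2%), with 1 below and 4 above under median scaling (8.38% and 32.9%) and 1 below and 2 above in the authors' values (24.4% and 19%). MDA-MB-157 thus had the most genes below 0 h with quantile normalisation and HCC38 in both other sets of values.

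From 24 h to 72 h, averaged over lines, 0 of the 10 genes were called by limma (0.149% of all genes), and 0 at an unadjusted p under 0.05 (10.3%). The test of unequal change between lines called 0 at 24 h (0% of all genes) and 0 at 72 h (0.0405%). Its unadjusted counts were 0 at 24 h (4.25%) and 1 at 72 h (9.53%), the latter being FOSL1. FOSL1 in HCC38 (1.06, unadjusted p 0.015) and in MDA-MB-157 (-1.02, unadjusted p 0.019) had values of opposite sign from 24 h to 72 h, and JUN in HCC38 was at 0.53 (unadjusted p 0.0099). The limma adjusted p of these were 0.67, 0.52 and 0.61.

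**Figure D4:**
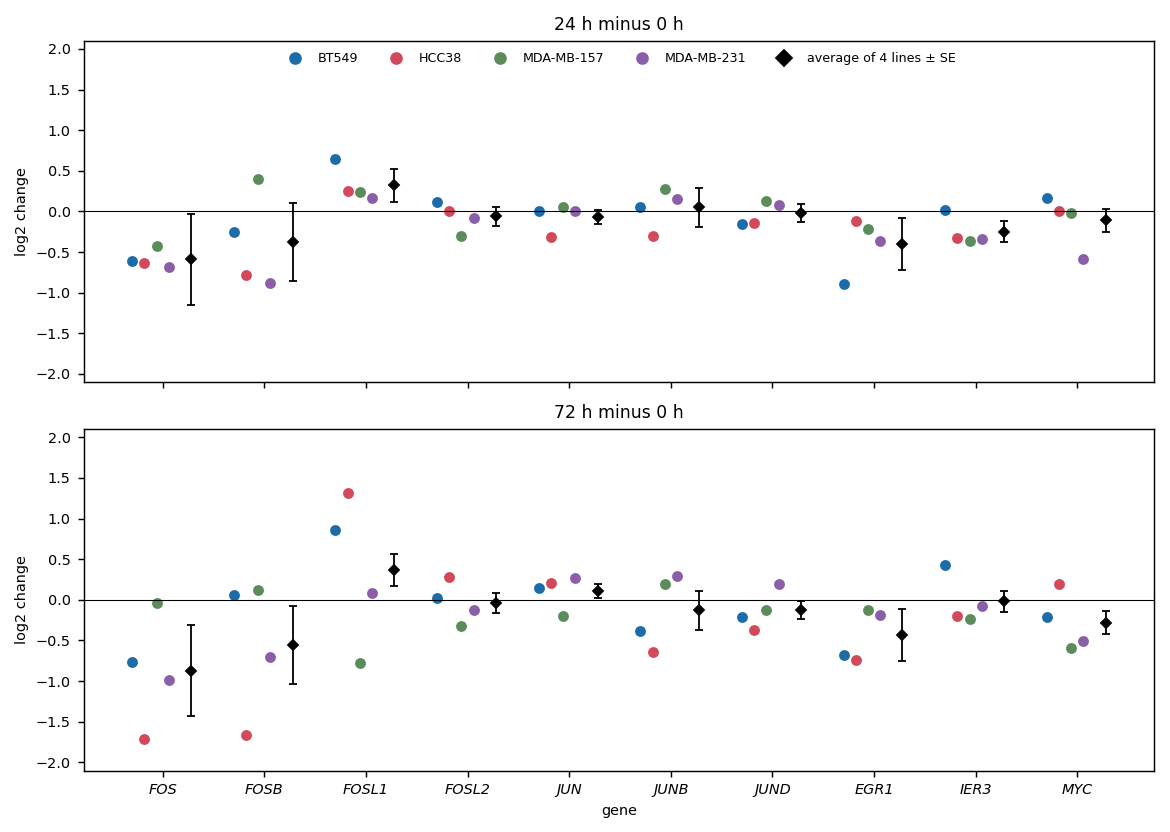
Differences from 0 h at 24 h (upper panel) and 72 h (lower panel) in log2 units, for the 10 genes. Coloured points are lines and black diamonds the average of the 4 lines with its standard error, and 0 of the values passed the adjusted test, the lowest being FOS in HCC38 at 72 h (-1.71).

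Genes around AP-1 and MYC gave no call either. The lists held 9 measured AP-1 dimer partners (of 12), 20 other immediate early genes (of 24) and 15 upstream kinases and serum response factors (of 18). They also held 14 reported AP-1 targets (of 16), 9 MYC partners (of 10) and 11 reported MYC targets (of 12). At a limma adjusted p under 0.05, 0 of them were called higher and 0 lower in any of the 10 comparisons with 0 h. Of all genes, at most 1.21% were called in any of these comparisons, so few calls could arise in such lists. Their medians on the 72 h average were -0.04, -0.06, -0.01, 0.08, -0.09 and 0.03 log2, against -0.001 over all genes. At 24 h they were -0.01, -0.11, 0.01, -0.04, -0.05 and 0.03.

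The largest 72 h averages in these lists are given as values. Among the partners, the small MAF protein MAFF was at 0.40 (SE 0.18) and BATF3 at 0.24. Among immediate early genes, IER5L was at -0.47 (SE 0.13, limma adjusted p 0.084) and the nuclear receptor NR4A2 at -0.48 (SE 0.33). The kinases MAP2K1 and MAP2K2, which activate ERK, were at 0.28 and 0.24. Among AP-1 targets, the chemokine CXCL8 was at 0.64 (SE 0.29, adjusted p 0.29) and HBEGF, an EGF receptor ligand, at 0.41 (SE 0.12, adjusted p 0.098). MXD3 and MYCL were at -0.19 and -0.21, and the MYC targets CAD, of pyrimidine synthesis, and NOP56, of ribosome assembly, at 0.26 and 0.14.

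In BT549 a gap between the replicates was seen in some immediate early genes and not in others. Of the 20 measured, 8 were higher in replicate 1 at all 3 times, and IER5, CCN1, TIPARP, RHOB and GADD45B were lower in it at all 3. Of all genes, 39.8% had the same replicate higher at all 3 times, counting both directions. The share of all genes with replicate 1 higher was not computed, so the 8 genes cannot be set against it. NR4A2, ZFP36 and HES1 exceeded 1 log2 at each time, as 0.54% of all genes did, with NR4A2 at 2.15, 1.26 and 2.09. Gaps were not limited to this list: of the reported AP-1 targets, MMP9 differed by 1.37, 1.47 and 1.26. CCND1, another of them, differed by -1.63, -1.37 and -1.33. Of the kinases and serum response factors 5 of 15 were higher in replicate 1 at all 3 times, and 0 by more than 1 log2. The part of culture state or handling in this gap was not tested.

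After each line's mean was subtracted, the genes whose 12 group means ran most like a member's correlated with it at 0.905 to 0.982, given as a description since the groups share lines and arrays. For FOS these were CUTALP, RAB11FIP2 and ERLIN2, and for FOSB DSG3, ASMTL-AS1 and PER3. For FOSL1 they were MAP1B, TMC5 and ADM, with r of 0.952, 0.943 and 0.940, and 72 h averages of 0.22, 0.18 and 0.30 log2. For JUN they were NR6A1, PCDHGC4 and PLAU, and for EGR1 C17orf99, SYT15 and RPS15A. FOSL2 ran most like PCDHA12, CD200R1L and EHD2, JUNB like UBQLN1, LNX2 and ELF3, and JUND like BTN3A2, LMAN1 and WAPL. IER3 ran most like AKNA, LPIN2 and STK38L, and MYC like SNORD48, PRR14 and ATP2A1.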

How the data were processed

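Biotin-labelled RNA was read on Illumina bead arrays with a single label, per the labels' protocols. The authors deposited intensity per probe without normalisation, as the table's values show. A detection p-value stands beside each intensity, per the file headers; how it was computed is not given in the sources used here. A second table holds log2 values that the authors deposited without a stated method. Its identifiers did not correspond to its values (33 probes kept theirs), so 47319 of 47322 probes were matched by value and the table was used only as an alternative.

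Symbols came from the platform annotation, updated by Entrez identifier through RefSeq (GRCh38.p14) for 30073 probes. Of the probes, 30112 had 1 symbol, 8 several and 17202 none, and only those with 1 symbol were used. With limma 3.58.1 in R 4.3.3, background was corrected by normexp with controls inferred from the detection p-values and an offset of 16, then quantile-normalised and taken to log2. A probe needed a detection p under 0.05 on 2 or more arrays, and the brightest probe stood for its gene. 1 mean per group was fitted on all 24 arrays (residual df 12, prior df 6.87), and p-values were adjusted by Benjamini-Hochberg over 14807 genes. The number of arrays limits the precision. The code was tested on simulated data.

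The genes, the companion lists and the tests were chosen with earlier results of these data known. From each companion list the text names the called genes with the largest 72 h average, at most 4, or the 2 largest values where 0 were called. For each of the 10 genes it names the 3 with the highest correlation of group means. Alternatives covered background, scaling, filter, probe choice, array weights, slide, replicate number and arrays left out. 0 per-sample columns were left out.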

Additional observations from a re-analysis of the deposited data

Results flagged for a closer look

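In 3 genes the arrays at 72 h all lay above those at 0 h in some lines and all below them in others. For FOSL1, BT549 and HCC38 were higher and MDA-MB-157 lower, with 2.09 log2 between the most distant lines' differences. The test of unequal change across the lines, by limma, gave an unadjusted p of 0.0079 and an adjusted p of 0.35, so it did not pass. For JUN, BT549 and MDA-MB-231 were higher and MDA-MB-157 lower, with 0.47 log2 between the lines farthest apart (limma adjusted p 0.77). For JUND, MDA-MB-231 was higher and HCC38 and MDA-MB-157 lower, with 0.56 log2 (limma adjusted p 0.79). With 2 arrays a group, a lack of overlap within 1 line is common. At 72 h, 18.2 to 22.2% of all genes lay above 0 h and 17.5 to 22.6% below, depending on the line. The share of all genes without overlap in opposite directions in different lines was not computed. The 3 genes cannot be set against it and are given as values only. With median scaling, 0 of the 10 genes lay below 0 h without overlap in MDA-MB-157 at 72 h.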

How the results depend on the processing

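Over 120 results of the 10 genes under up to 40 alternatives, 4471 values kept their side of the threshold, 16 came to pass it and 13 no longer passed it. Most of the results were not called, so most values kept their side by staying uncalled. No called value changed sign, but uncalled ones did: JUNB on the 24 h average in 10 of 40 alternatives and IER3 on the 72 h average in 7. FOS on the 72 h average did so in 0. The replicate numbers were not taken as pairs, since the correlation of replicate differences between times was over 0.1 in only 7 of 12 pairs of times. It ran from -0.049 to 0.501, and all 3 pairs of BT549 were over 0.1. With the replicate block within each line, 1 gene was called at 72 h on the average (FOS, -0.87, SE 0.12, adjusted p 0.003) and 2 in single lines at 72 h (FOS and FOSB in HCC38, adjusted p 0.009 and 0.028). That block moved the calls over all genes on the 72 h average from 179 to 504. Its F test between lines at 0 h takes the differences between numbered replicates out of the spread (FOS, adjusted p 2.2e-08). With single arrays left out, calls in single lines at 72 h ranged from 0 to 1. The count between lines at 0 h ranged from 7 with median scaling to 10, and was 9 without the BT549 arrays numbered 1 or 2, an alternative chosen after seeing the data, as was leaving out BT549 for the other lines. Median scaling moved the median of all genes by -0.40 and -0.47 log2 in BT549, -0.28 and -0.22 in HCC38, 0.09 and 0.17 in MDA-MB-157 and 0.16 and 0.12 in MDA-MB-231 at 24 h and 72 h. At 0 h FOS passed in 12 of 36 alternatives (adjusted p 2.2e-08 to 0.26) and FOSL2 was lost in 10 (0.0038 to 0.61). The slide as a block changed no call of these genes.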
